A study of Mus musculus with 2 samples.

Results

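The subject is the 9 mouse let-7 genes that lie outside the clusters shared with mir-99/100 and mir-125 genes, described in newborn calf muscle. They are Mirlet7a-1, Mirlet7f-1 and Mirlet7d on chromosome 13, Mirlet7c-2 and Mirlet7b on chromosome 15, Mirlet7f-2 and Mir98 on the X chromosome, Mirlet7g on chromosome 9 and Mirlet7i on chromosome 10. The rule that picked them uses gene names and cluster membership, not measured values, although earlier results of these data were known when it was set. They make up 9 of 2202 counted miRNA genes. The other 3 let-7 genes considered, Mirlet7a-2, Mirlet7c-1 and Mirlet7e, share clusters with mir-99/100 and mir-125 genes and serve as the nearest comparison.

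Small RNA was sequenced from the gastrocnemius of female B6CASTF1/J mice at an age of 4 days, in 1 group of 2 libraries. B6CASTF1/J animals are hybrids of the C57BL/6J and CAST/EiJ strains, with no treatment or engineered allele in the labels. The labels number the females separately but give both the same donor identifier, so a difference between the libraries may be technical. The p-values below allow for counting error alone and not for spread between animals. Library 2 held 8487769 reads, of which 4336759 were counted on the own strand of a miRNA gene, and library 1 held 10426665 reads, of which 5569392 were. Reads that matched several places made up 37.6% of library 2 and 36.9% of library 1 and belong to no gene. Counted without those reads, the muscle gene Mir206 was the highest of all genes. It was at 119323 CPM (own-strand counts scaled to a common total of gene counts) in library 2 and 129336 CPM in library 1. The ranking of genes over all reads was not tested.

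The let-7 family was first found in the worm Caenorhabditis elegans as a switch of developmental timing, and in vertebrates its mature forms accumulate as cells differentiate. Its members repress growth-promoting and fetal transcripts such as Hmga2, Igf2bp family genes and Lin28 itself. The RNA-binding proteins Lin28a and Lin28b hold let-7 back in immature cells by binding the terminal loop of the precursor hairpin. In human cells the precursors divide into a group cut directly and a group whose end must first be extended by a uridine, and the human counterparts of the genes outside the mir-125 clusters belong to the second.

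The mature miRNAs of the 5p arm, the arm known to be the usual functional product, show how close the members are. They are given 5′ to 3′ from RefSeq (GRCm38.p6), with the seed, bases 2 to 8, in capitals.
let-7a-5p (Mirlet7a-1): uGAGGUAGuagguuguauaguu
let-7f-5p (Mirlet7f-1 and Mirlet7f-2): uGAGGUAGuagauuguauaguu
let-7d-5p (Mirlet7d): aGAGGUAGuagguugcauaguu
let-7c-5p (Mirlet7c-2): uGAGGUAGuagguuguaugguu
let-7b-5p (Mirlet7b): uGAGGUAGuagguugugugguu
miR-98-5p (Mir98): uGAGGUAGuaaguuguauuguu
let-7g-5p (Mirlet7g): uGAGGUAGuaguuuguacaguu
let-7i-5p (Mirlet7i): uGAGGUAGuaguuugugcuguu
All 9 genes carry the seed GAGGUAG, and their 8 different 5p miRNAs are identical at 15 of 22 positions. Counted from 1 at the 5′ end of let-7a-5p, let-7f-5p differs by G12A, let-7c-5p by A19G, and let-7d-5p by U1A and U16C. The pair of genes that led the family in gene counts, Mirlet7i and Mirlet7g, have 5p miRNAs that share G12U and U18C against let-7a-5p. From let-7g-5p to let-7i-5p the differences are A17G and A19U. Levels of single 5p miRNAs were not measured. Of the genes with an annotated mature miRNA in the RefSeq table, only Mir7k and Mir1961 outside the let-7 genes listed here carry the same seed. Both had 0 counts in both libraries, so a level of at most 0.692 CPM in library 2 and of 0.539 CPM in library 1 remains possible.

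**Figure D1:**
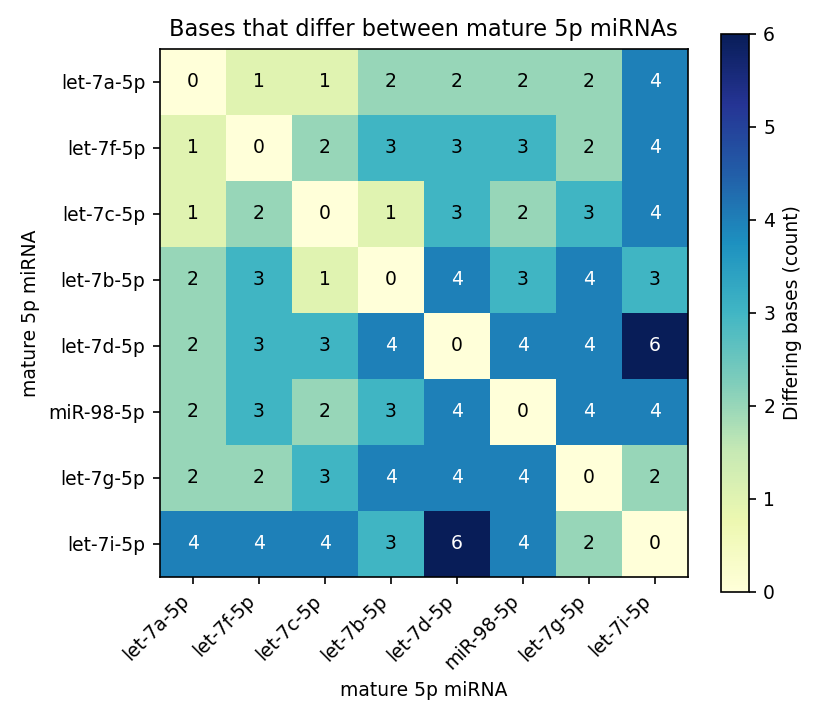
Number of bases that differ between each pair of the 8 mature 5p miRNAs, on both axes, compared position by position. Pairs differ by 1 base (let-7a with let-7f or let-7c, and let-7c with let-7b) to 6 bases (let-7d with let-7i).

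The opposite, 3p arms were more varied, and they are shown because counts per gene pool both arms. The seed is again in capitals.
let-7a-1-3p (Mirlet7a-1): cUAUACAAucuacugucuuucc
let-7c-2-3p (Mirlet7c-2): cUAUACAAucuacugucuuucc
let-7f-1-3p (Mirlet7f-1): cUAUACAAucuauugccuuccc
let-7b-3p (Mirlet7b): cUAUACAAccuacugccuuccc
miR-98-3p (Mir98): cUAUACAAcuuacuacuuuccu
let-7f-2-3p (Mirlet7f-2): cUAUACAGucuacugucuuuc
let-7d-3p (Mirlet7d): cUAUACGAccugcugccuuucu
let-7g-3p (Mirlet7g): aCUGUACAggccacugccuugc
let-7i-3p (Mirlet7i): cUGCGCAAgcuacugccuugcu
Here 5 genes share the seed UAUACAA, and each of the other 4 has a seed of its own. The 3p miRNAs of Mirlet7a-1 and Mirlet7c-2 are the same molecule, although these genes lie on different chromosomes.

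Copies of a mature sequence divided the members into 3 sets. For Mirlet7a-1 and Mirlet7c-2 both arms also occur in another counted gene. Mirlet7a-1 shares its 5p arm with Mirlet7a-2, Mirlet7c-2 shares its own with Mirlet7c-1, and each has the other's 3p arm. For Mirlet7f-1 and Mirlet7f-2 only the 5p arm is repeated, each in the other. For Mirlet7d, Mirlet7b, Mir98, Mirlet7g and Mirlet7i neither arm occurs in another counted gene.

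The genes occupy 5 places in the genome (mm10, with the GENCODE M21 annotation). Mirlet7a-1 (chr13:48538179-48538272), Mirlet7f-1 (chr13:48537829-48537917) and Mirlet7d (chr13:48536012-48536114) lie in that order on the minus strand, in exons of the long noncoding RNA gene 6720427I07Rik, with gaps of 261 and 1714 bases. Mirlet7c-2 (chr15:85706603-85706697) and Mirlet7b (chr15:85707319-85707403) lie 621 bases apart on the plus strand, in exons of the noncoding gene Lncppara. Mirlet7f-2 (chrX:151912346-151912428) and Mir98 (chrX:151913214-151913321) lie 785 bases apart on the plus strand, in intronic sequence of Huwe1, which encodes a ubiquitin ligase. Mirlet7g (chr9:106178840-106178927) is on the plus strand in an intron of Wdr82, which encodes a subunit of histone methyltransferase complexes. Mirlet7i (chr10:122985640-122985724) is on the minus strand in an exon of D630033A02Rik, annotated as a transcribed processed pseudogene. Neither Mirlet7g nor Mirlet7i has another counted gene within 10 kb on its strand. Within 50 kb, Mirlet7g has Mir135a-1, at a gap of 24626 bases.

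The precursor hairpins were compared for the terminal region that Lin28 binds. The zinc knuckles of Lin28 are known to favour GGAG near the 3′ end of that region, so the motif GGAG was searched on the transcribed strand alone, as the precursor is single-stranded RNA. It is in capitals in the hairpins of the leading pair.
Mirlet7i hairpin: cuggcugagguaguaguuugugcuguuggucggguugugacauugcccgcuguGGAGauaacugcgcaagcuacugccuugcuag
Mirlet7g hairpin: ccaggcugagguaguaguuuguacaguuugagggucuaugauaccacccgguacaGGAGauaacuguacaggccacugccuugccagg
Between its mature arms, GGAG stood in 6 of the 9 members, namely Mirlet7a-1, Mirlet7f-1, Mirlet7d, Mirlet7f-2, Mirlet7g and Mirlet7i, and these letters were not in that window of Mirlet7b, Mirlet7c-2 or Mir98. Of 644 mouse hairpins with both arms in the RefSeq table, 8.07% had GGAG between the arms. In these members 4 bases separated it from the 3p arm, or 3 bases in Mirlet7g. All 3 let-7 genes of the mir-125 clusters also had it. The window itself was longer in the members, at 26 bases in Mirlet7c-2 to 36 bases in Mir98, against 23 bases in each of Mirlet7a-2, Mirlet7c-1 and Mirlet7e.

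**Figure D2:**
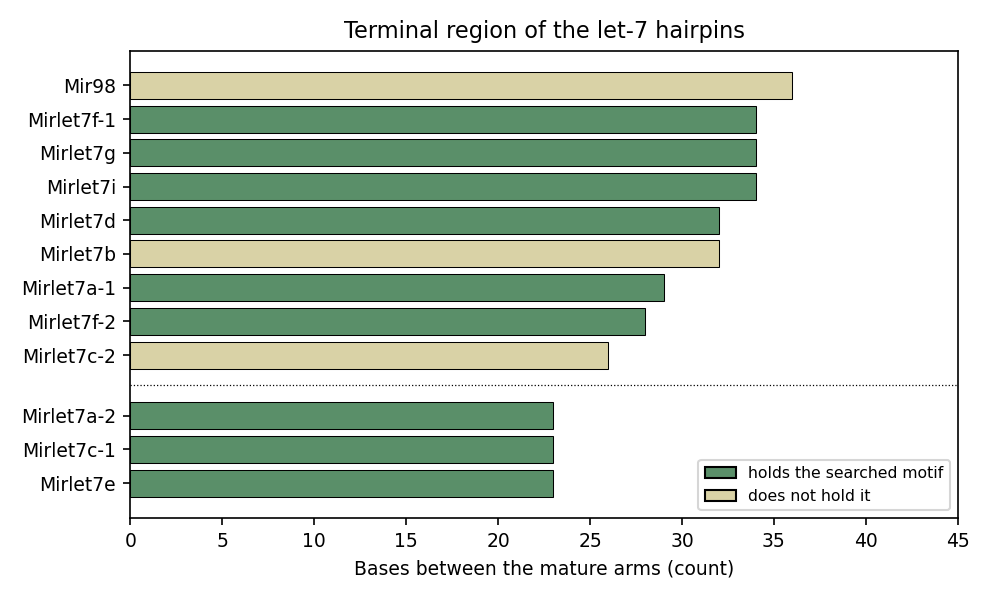
Bases between the annotated mature arms of each let-7 hairpin, on the horizontal axis, with the 9 members above the dotted line and the 3 let-7 genes of the mir-125 clusters below it. Green bars hold the motif GGAG in that stretch, which spans 26 to 36 bases in the members and 23 bases in the other 3 genes.

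Mirlet7a-1 and Mirlet7c-2 show that the same arms can sit in unlike hairpins. Capitals mark the mature arms, of which the 3p arm is identical and the 5p arm differs at 1 base.
Mirlet7a-1 hairpin: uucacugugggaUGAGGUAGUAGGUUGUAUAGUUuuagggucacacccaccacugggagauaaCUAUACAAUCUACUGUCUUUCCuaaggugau
Mirlet7c-2 hairpin: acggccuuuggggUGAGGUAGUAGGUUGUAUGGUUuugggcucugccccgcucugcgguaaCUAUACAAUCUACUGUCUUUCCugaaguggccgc
The first has 29 bases between the arms and contains GGAG there, and the second has 26 bases and does not. Their longest identical run was 26 bases, which covers the 3p arm and reaches past it.

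Together the 9 genes held 12.2% of gene counts in library 2 and 11.8% in library 1, or 12.03% ± 0.256 (SD, n = 2). Of the counts over the 12 let-7 genes considered, they held 97.1% in library 2 (exact 95% interval 97.0 to 97.1). In library 1 they held 97.3% (97.2 to 97.3). The 3 let-7 genes of the mir-125 clusters held 0.369% of gene counts in library 2 and 0.331% in library 1. These shares leave out reads that matched several places. Mirlet7a-2 and Mirlet7c-1 have the same 5p arms as the members Mirlet7a-1 and Mirlet7c-2. The members' share of all let-7 reads was therefore not tested. All 9 members were detected, meaning 2 CPM or more in both libraries, as were 335 of all 2202 genes. The members' median level was 2944 CPM, beside 123 CPM over all detected genes. Intervals and limits here reflect counting error alone, because the reads carry no molecular identifiers and may repeat a molecule.

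Mirlet7i was the highest member, with 248686 counts or 57344 CPM in library 2 and 303388 counts or 54474 CPM in library 1. By these counts, which leave out reads that matched several places, it ranked 4 among all genes in both libraries. It made up 47.0% of the members' counts in library 2 and 46.0% in library 1. Its level was 0.481 of that of Mir206 in library 2 and 0.421 in library 1. Mirlet7g followed with 160510 counts or 37012 CPM in library 2 and 204115 counts or 36649 CPM in library 1, rank 8 in both. These are the members with no other counted gene within 10 kb on their strand. Together they held 77.1% ± 0.260 (SD, n = 2) of the members' counts. Mirlet7i exceeded Mirlet7g 1.55-fold in library 2 (exact 95% counting interval 1.54 to 1.56) and 1.49-fold in library 1 (1.48 to 1.49).

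Mirlet7d had 58763 counts or 13550 CPM in library 2 and 80978 counts or 14540 CPM in library 1. It was the only member of the chromosome 13 cluster at that level. Mirlet7a-1 had 752 counts or 173 CPM in library 2 and 810 counts or 145 CPM in library 1, and Mirlet7f-1 had 611 counts or 141 CPM in library 2 and 775 counts or 139 CPM in library 1. Counts of Mirlet7d were thus 78.1 times those of Mirlet7a-1 in library 2 and 99.97 times in library 1, and they were 96.2 times those of Mirlet7f-1 in library 2 and 104 times in library 1. These neighbours are annotated in exons of a single noncoding transcript gene. Both arms of Mirlet7a-1 and the 5p arm of Mirlet7f-1 also occur in another counted gene, unlike the arms of Mirlet7d. The ratios hold only for reads that matched a single place, and the difference over all reads was not tested. Mirlet7f-1 also lies opposite the counted gene Gm24111, and its count was 0 in both libraries when strand was ignored. Gm24111 itself had 0 counts on its own strand in both libraries.

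On chromosome 15, Mirlet7b had 38762 counts or 8938 CPM in library 2 and 40950 counts or 7353 CPM in library 1. Mirlet7c-2 had 1057 counts or 244 CPM in library 2 and 1379 counts or 248 CPM in library 1. The ratio of Mirlet7b to Mirlet7c-2 was 36.7 in library 2 (34.5 to 39.0) and 29.7 in library 1 (28.1 to 31.4), so the intervals did not overlap. Both arms of Mirlet7c-2 occur in another counted gene, so this ratio too holds only for reads that matched a single place.

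In reads that matched a single place, the Huwe1 pair was far more even than the other clusters. In those clusters Mirlet7a-1 and Mirlet7c-2 have both arms repeated in another counted gene, and Mirlet7f-1 has its 5p arm repeated. The 5p arm of Mirlet7f-2 is repeated too. Whether the clusters differ in evenness over all reads was not tested. Mir98, a let-7 member by its seed in spite of its name, had 12544 counts or 2892 CPM in library 2 and 16682 counts or 2995 CPM in library 1. Mirlet7f-2 had 7689 counts or 1773 CPM in library 2 and 10619 counts or 1907 CPM in library 1. Mir98 exceeded Mirlet7f-2 1.63-fold in library 2 (1.59 to 1.68) and 1.57-fold in library 1 (1.53 to 1.61).

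**Figure D3:**
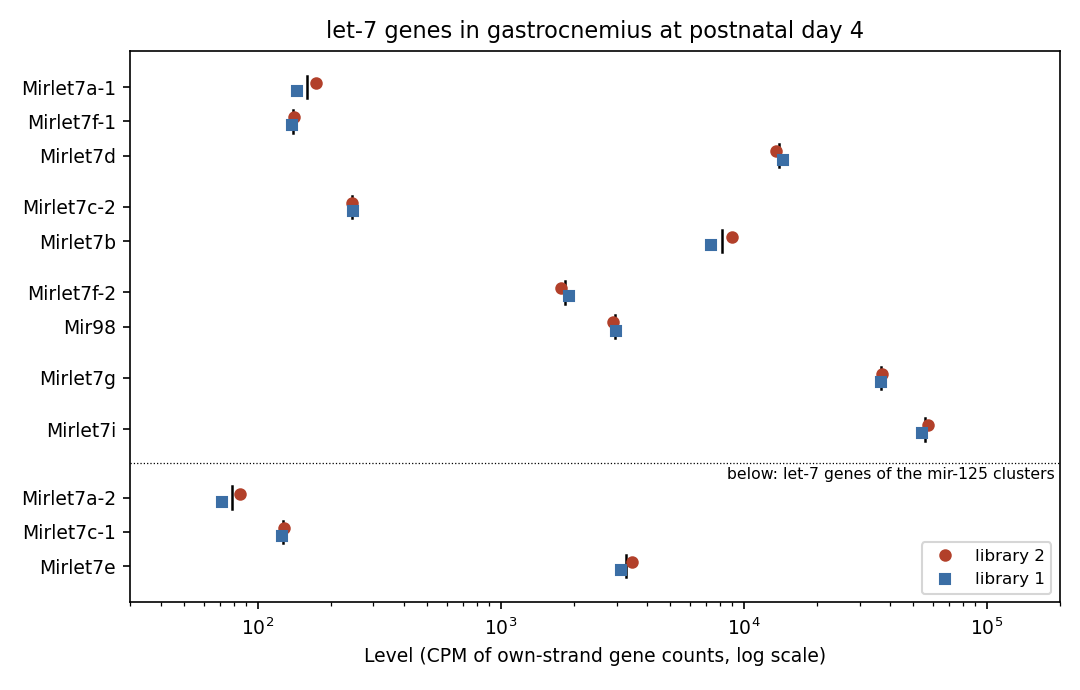
Level of each let-7 gene in CPM on a log axis, in library 2 (red circles) and library 1 (blue squares), with the mean as a black tick and the genes grouped by locus. Mirlet7i and Mirlet7g lie at 36649 CPM or more, while Mirlet7f-1, Mirlet7a-1 and Mirlet7c-2 lie at 248 CPM or less.

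The order Mirlet7i, Mirlet7g, Mirlet7d, Mirlet7b, Mir98, Mirlet7f-2, Mirlet7c-2, Mirlet7a-1, Mirlet7f-1 was the same in both libraries, and no neighbours overlapped in CPM. A read of a mature miRNA covers the whole molecule, so levels were not divided by length, and dividing by hairpin length left the order as it was. The exact counting interval of the ratio included 1 for 1 neighbouring pair in 1 library. That was Mirlet7a-1 over Mirlet7f-1 in library 1, at 1.05 (0.946 to 1.15), where library 2 gave 1.23 (1.10 to 1.37). The step from Mirlet7f-2 to Mirlet7c-2 was the largest between neighbours, at 7.27-fold in library 2 and 7.70-fold in library 1.

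The members with no repeated arm were the highest. The 5 members with neither arm in another counted gene ranged from Mir98 at 2944 ± 72.7 CPM to Mirlet7i at 55909 ± 2029 CPM (SD, n = 2). The pair with a repeated 5p arm lay at 1840 ± 94.5 CPM for Mirlet7f-2 and 140 ± 1.23 CPM for Mirlet7f-1, and the pair with both arms repeated at 246 ± 2.74 CPM for Mirlet7c-2 and 159 ± 19.8 CPM for Mirlet7a-1. By another measure, 4 of the 9 members had a run of at least 20 bases in common with some other counted gene, beside 24.2% of the 335 detected genes. Those 4 had a median of 203 CPM and the other 5 a median of 14045 CPM, where over all detected genes the medians were 78.2 and 139 CPM. With a run of 18 bases, Mirlet7b, Mirlet7g and Mirlet7i, at 19 bases each, would count as sharing too. Reads that match several places are in no gene count, and how many of them came from let-7 genes was not tested. The levels of Mirlet7a-1, Mirlet7c-2, Mirlet7f-1 and Mirlet7f-2 are therefore uncertain. Whether the other 5 members also lost reads in this way was not tested.

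**Figure D4:**
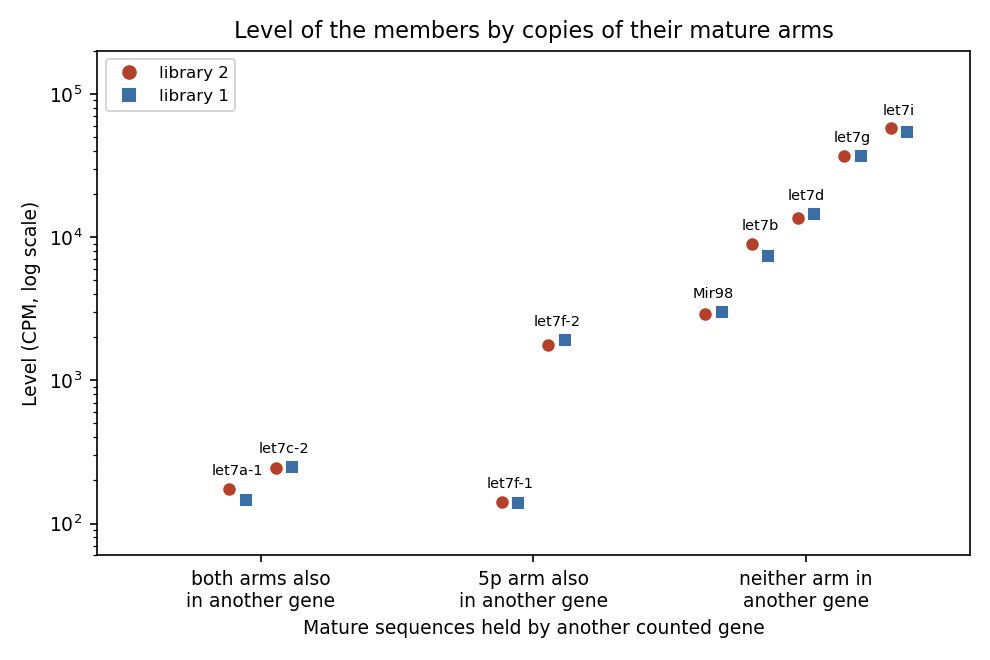
Level of each member in CPM on a log axis, in library 2 (red circles) and library 1 (blue squares), by whether its mature arms also occur in another counted gene. Members with neither arm repeated lie at 2892 CPM or more, and the other 4 at 1907 CPM or less.

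Genes that make the same 5p miRNA can be set side by side. Mirlet7a-1 had 2.04 times the counts of Mirlet7a-2 in library 2 (exact 95% interval 1.80 to 2.31) and 2.04 times in library 1 (1.81 to 2.31). Mirlet7c-2 had 1.90 times the counts of Mirlet7c-1 in library 2 (1.72 to 2.11) and 1.97 times in library 1 (1.79 to 2.16). Mirlet7f-2 had 12.6 times the counts of Mirlet7f-1 in library 2 (11.6 to 13.7) and 13.7 times in library 1 (12.7 to 14.8). In all 3 pairs the intervals of the libraries overlapped. The ratios are of counts that exclude multiply matching reads, so they hold for the reads that could be placed. The full 5p sequence of each pair occurs in both of its genes, so the ratios do not compare output of that 5p miRNA. Mirlet7e, whose 5p miRNA differs from let-7a-5p by U9G and occurs in no other counted gene, was at 3477 CPM in library 2 and 3117 CPM in library 1, between Mirlet7b and Mir98.

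Outside the family, the genes nearest in level to a member were found by the distance of log2(CPM + 0.5) over the 2 libraries. For Mirlet7i they were Mir378a at a distance of 0.08 and Mir335 at 0.47. For Mirlet7g they were Mir379 at 0.38 and Mir127 at 0.38, and for Mirlet7d they were Mir23a at 0.11 and Mir21a at 0.40. Over 2 libraries this measures little more than the level itself.

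The libraries were then compared for each member. The median size of their log2 ratio was 0.07, beside 0.20 over the 335 detected genes, most of which were lower in level. The members' median was 0.10 with DESeq2 size factors, 0.12 with strand ignored and 0.14 with TMM fitted on all genes with a count. The 6 non-members nearest in level, named above, had log2 ratios of 0.07 for Mir378a, 0.16 for Mir335, 0.02 for Mir379, 0.01 for Mir127, -0.27 for Mir23a and 0.07 for Mir21a. All 9 members were within 1.5-fold, as were 85.1% of detected genes. Changes are given as library 2 over library 1 after TMM scaling. By an exact two-sided binomial test of the counts, adjusted by Benjamini-Hochberg over the 335 genes, 6 of the 9 members differed at a threshold of 0.05, where 55.5% of all detected genes did. Of these, 3 were higher in library 2 (28.7% of detected genes) and 3 were higher in library 1 (26.9%). The share of members called is therefore near the background in this fit. With TMM fitted on all genes with a count, 6 members were called where 26.8% of 740 genes were. The test compares these libraries, not conditions.

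With this scaling Mirlet7b lay furthest apart, with a log2 ratio of 0.26 (0.24 to 0.28, adjusted p = 2.35e-140 by the exact test). With TMM fitted on all genes with a count it was at 0.19, and Mirlet7f-2 and Mirlet7d lay slightly further apart at -0.20 and -0.19. Mirlet7a-1 was higher in library 2 at 0.23 (0.09 to 0.38, adjusted p = 0.00348 by the exact test), and this call was lost under that fit, at an adjusted p of 0.0958. Mirlet7i at 0.05 was called higher in library 2 but lay at -0.02 under that fit and was then called higher in library 1. Lower in library 2 were Mirlet7f-2 at -0.13 (-0.17 to -0.08), Mirlet7d at -0.12 (-0.14 to -0.11) and Mir98 at -0.07 (-0.11 to -0.04). Mirlet7g at -0.01, Mirlet7c-2 at -0.05 and Mirlet7f-1 at -0.00439 were not called. For Mirlet7g the sign and the call depended on the scaling, with ratios of -0.08 to 0.02, and the sign of Mirlet7f-1 flipped too.

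**Figure D5:**
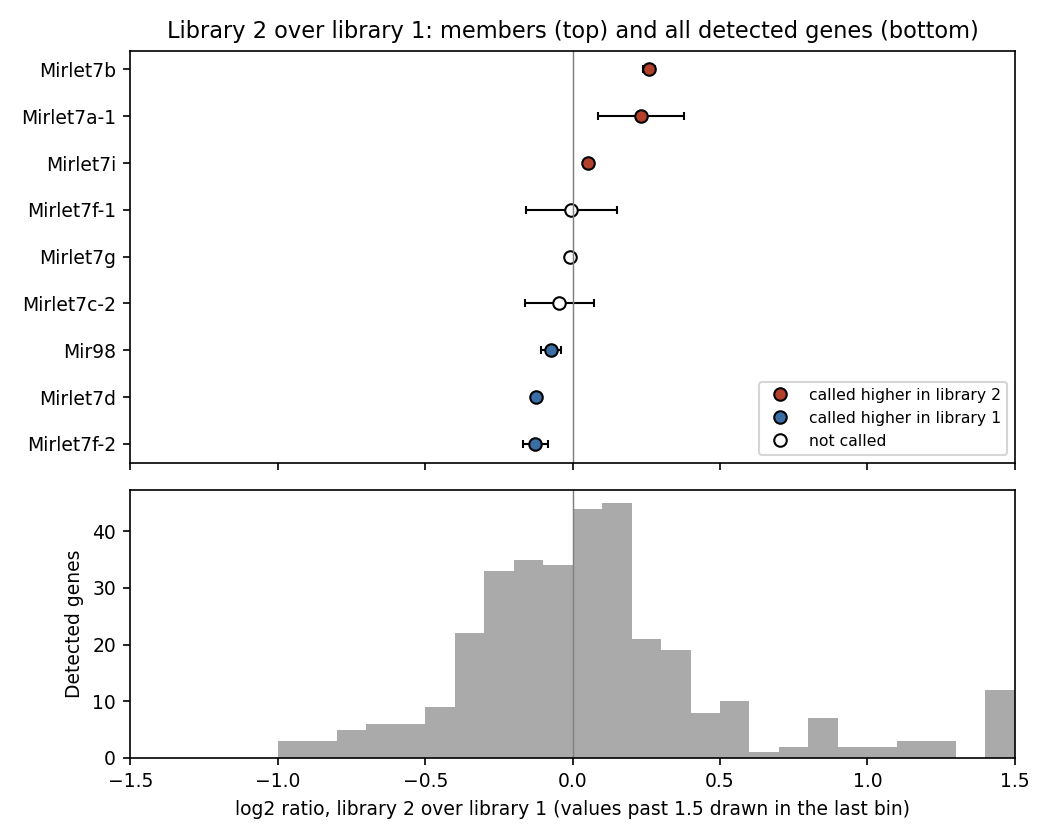
Upper panel, log2 ratio of library 2 over library 1 for each member with its exact 95% counting interval, coloured by call. Lower panel, the number of detected genes in each bin of the same ratio, where the members' range of -0.13 to 0.26 covers the middle of the distribution.

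Neighbours in a locus did not always differ in the same direction. On chromosome 13 Mirlet7a-1 was higher in library 2 and Mirlet7d was higher in library 1, and their ratio of counts was 78.1 in library 2 (72.7 to 84.1) against 99.97 in library 1 (93.3 to 107). On the X chromosome Mirlet7f-2 and Mir98 were both lower in library 2. In the mir-125 clusters, Mirlet7e at 0.14 was called higher in library 2 and Mirlet7c-1 at 0.00170 was not called. Mirlet7a-2 at 0.23 (0.02 to 0.44) was called higher too, but only just, at an adjusted p of 0.0476 by the exact test. Of the neighbours of these let-7 genes, Mir99a at -0.35, Mir100 at -0.39, Mir99b at -0.49 and Mir125a at -0.35 were called lower. The remaining neighbours, Mir125b-1 at 0.02 and Mir125b-2 at -0.13, were not called.

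Marker genes of other cell types also differed between the libraries. Summed over each list, leukocyte markers (5 of 5 detected) were at 652 CPM in library 2 and 1013 CPM in library 1. Endothelial markers (1 of 2) were at 21932 CPM in library 2 and 29519 CPM in library 1, nearly all of it Mir126a. Smooth muscle markers (2 of 2) were at 29100 CPM in library 2 and 25509 CPM in library 1, mostly Mir143, while Mir145a was called lower in library 2 at -0.12. Erythroid markers (2 of 2) were at 119 CPM in library 2 and 96.8 CPM in library 1. There Mir451a was called higher in library 2 at 0.40 and Mir144 at -0.09 was not called. Epithelial markers (6 of 8) were at 411 CPM in library 2 and 299 CPM in library 1. Liver and gut markers (4 of 6, Mir194-1 at 0) were at 867 CPM in library 2 and 214 CPM in library 1, of which Mir122 held 824 CPM in library 2 and 169 CPM in library 1. In the same list Mir192 was called lower in library 2 at -0.71, and Mir194-2 at 0.17 and Mir375 at 0.16 were not called. Neural and glial markers (3 of 10, with Mir9-2, Mir124a-2 and Mir124a-3 at 0) were at 520 CPM in library 2 and 383 CPM in library 1. Their highest gene, Mir338, was at 328 CPM in library 2 and 346 CPM in library 1. In that list Mir137 was at 178 CPM in library 2 and 33.6 CPM in library 1. Skeletal muscle markers (8 of 9) were at 120702 CPM in library 2 and 130998 CPM in library 1, nearly all of it the Mir206 given above. All these sums leave out reads that matched several places, and how many of those came from the listed genes was not tested. The part of these cells in the let-7 ratios was not tested, and in whole tissue fewer cells of a type and less RNA per cell cannot be told apart.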

How the data were processed

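Per the labels, small RNA of 2 libraries was aligned to mm10, and the text deposited with the files names the GENCODE M21 annotation. The authors deposited raw counts per gene in 3 columns, which by their sums hold reads counted without regard to strand, on the gene's own strand and on the opposite strand. The sources used here name no aligner or counter. Own-strand counts were used. The 4 lines that name no gene stayed out of library sizes and tests. They held 48.9% of library 2 and 46.6% of library 1.

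Gene IDs were matched to GENCODE M21, and all 9 hairpins equal its transcripts. Mature sequences came from RefSeq (GRCm38.p6). CPM, TMM scaling (edgeR 4.0.16, R 4.3.3) on genes at 2 CPM or more in both libraries, exact binomial tests and exact 95% intervals were computed with Python 3.11.15 and scipy 1.17.1. A fit of 1 library against the other leaves edgeR's own test no residual degrees of freedom. The counting test was tested on simulated data drawn with counting error alone, so that check cannot show how the test handles spread between animals. Log2 values added 0.5 CPM, and a count of 0 was taken to allow 3 counts. Shared runs were searched on the transcribed strand among counted genes only.

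All 9 members were named, and, for the 3 highest, the 2 nearest genes outside the family. The members and lists were chosen with earlier results of these data known. Alternatives tried were DESeq2 1.42.0 size factors, library totals, counts that ignore strand, other detection limits, pseudocounts and denominators, each library alone, and other shared runs and neighbour distances.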

Additional observations from a re-analysis of the deposited data

Results flagged for a closer look

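Outside the gene counts, reads that matched several places made up 37.6% of library 2 and 36.9% of library 1. They are singled out because they lie outside the counts used for every value. They are in no gene, and both mature arms of Mirlet7a-1 and Mirlet7c-2 and the 5p arm of Mirlet7f-1 and Mirlet7f-2 occur in more than 1 counted gene. The share of these reads that belongs to let-7 genes was not tested.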

How the results depend on the processing

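The order of the 9 members was unchanged with either library alone. Leaving out a library gave shares of gene counts from 11.8% to 12.2%. With all reads as the denominator the members held 6.28% and their median level on that scale was 1539. With strand ignored they held 13.7% of gene counts and 99.8% of let-7 counts, with a median of 3354 CPM, and both Mirlet7f-1 and the non-member Mirlet7e fell to 0. The members called numbered 6 or 7 in every alternative, of 8 or 9 tested, against 165 to 198 of all genes. The share of all genes called ran from 26.8% of 740 with every gene of 1 count or more, where 6 members were called, to 66.1% of 254 with detection at 10 CPM, where 7 were. Of the calls over all genes, those higher in library 2 made up 51.6%, against 40.4% with 1 count or more, where 1 member was called higher in library 2 and 5 in library 1. Signs reversed for Mirlet7g at 0.0142 and Mirlet7f-1 at 0.0179 with library totals, for the same genes at 0.0232 and 0.0269 with detection at 10 CPM, and for Mirlet7i at -0.0180 with every gene of 1 count or more. Mirlet7b, Mirlet7d, Mirlet7f-2 and Mir98 kept direction and call in all 5 alternatives. With shared runs of 18 and 24 bases, 7 and 2 members shared one, by the limit's own construction. No paired analysis was possible because there is 1 group. Counts of 611 to 1379 limit the ratios of Mirlet7f-1, Mirlet7a-1 and Mirlet7c-2.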
